A study of Canis lupus familiaris with 16 samples.

Results

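PERP and GJB2 are 2 cell junction genes among the 24580 Ensembl genes measured by RNAseq in canine meningioma and in normal canine meninges. They were taken from the genes that the study listed as overexpressed in meningioma, where they are the desmosome gene and the gap junction gene. The difference between meningioma and control libraries therefore chose them and is described here without a test, and since the study's own test weighed that difference against the variation within the groups, their spread is described in the same way. Whether they varied together from tumor to tumor was not part of the choice. The 13 meningioma libraries came from tumors of client-owned dogs submitted as surgical biopsies to a diagnostic service, and the labels give 6 tumors as grade I (5 transitional, 1 meningothelial) and 7 as grade II (atypical). The 3 control libraries came from meninges of healthy research beagles. No treatment of the dogs is described, so whether treatment differed between the groups is not known. Most tumors were formalin-fixed, paraffin-embedded and extracted with FormaPure, whereas the controls, and a frozen portion of a few tumors, were extracted with Trizol. Preservation and extraction thus changed with diagnosis in all but a few tumors, whose libraries were not identified here. Collection and breed changed with it too, since control meninges were taken shortly after euthanasia and the tumors came from dogs of various breeds. The parts of diagnosis, preservation, extraction, collection and breed in any difference between the groups cannot be told apart in this comparison.

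Desmosomes anchor the intermediate filaments of neighboring cells to each other. They are characteristic of epithelia, of heart muscle and of the arachnoid cap cells from which meningiomas are thought to arise. PERP is a tetraspan membrane protein of desmosomes that was found as an apoptosis effector of p53 and is also a target of p63. Gap junctions are clusters of channels built from connexins through which ions and small metabolites pass between cells, and GJB2 encodes connexin 26, which is present in epithelia, in the cochlea and in the leptomeninges.

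Fragments assigned to genes numbered 2138741 to 7358925 per meningioma library, with a median of 4095984, and 2269204 to 7054614 per control library. Libraries carry the numbers of the deposited table, 0 to 12 for meningiomas and 0 to 2 for controls, and these numbers were not tied to individual dogs here, so grades, sites and preservation were not compared. Separate dogs were the source of the libraries, and no library pair was as alike as counting noise alone would make it. The closest pair was meningioma libraries 9 and 10, where the mean squared difference was 5.18 times the counting variance. Libraries 3, 9 and 10 had the lowest scores of all libraries on the first principal component, and libraries 2 and 12 stood apart from all others on the third. In these bulk libraries, fewer cells of a type and less RNA per cell cannot be told apart.

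PERP (ENSCAFG00000030892) was higher in every meningioma library than in any control library. In the meningiomas its level ran from 37.8 FPKM (the deposited level, corrected for the length of the transcript and the depth of the library) in library 2, over a median of 54.6 FPKM, to 161 FPKM in library 4. The 3 controls had 15.1, 17.8 and 15.1 FPKM. The groups did not overlap, and the controls lay close together. Library 4 was the highest, library 6 came next with 111 FPKM, and the other 11 meningiomas lay between 37.8 and 87.1 FPKM. The mean over the 13 meningiomas was 67.7 ± 35.2 FPKM (SD) and that over the 3 controls 16.02 ± 1.55 FPKM (SD). All 13 meningiomas were at least 2-fold above the control mean, from 2.36-fold in library 2 to 10.0-fold in library 4, and 5 of them were at least 4-fold above it. The fitted log2 fold change was 2.09 (standard error 0.44, derived from the fold change and the F statistic of the edgeR fit, as for all edgeR standard errors here). A level at least 2-fold above the control mean in all 13 meningiomas was seen in 9 of the 14345 tested genes (0.0627%), a background from which nothing is read here because this contrast chose the gene.

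GJB2 (ENSCAFG00000029537) had the higher level of the pair and the wider range. In the meningiomas it ran from 61.5 FPKM in library 6, over a median of 299 FPKM, to 972 FPKM in library 3. The 3 controls had 61.5, 54.0 and 30.7 FPKM. The lowest meningioma and the highest control touched, with 61.49 FPKM in meningioma library 6 and 61.51 FPKM in control library 0, and the other 12 meningiomas were above all controls. In TMM-normalized CPM (fragments scaled by library size and a TMM normalization factor, without transcript length), library 6 lay just above that control (128.4 against 127.6). By that measure all 13 meningiomas were above all 3 controls for both genes, as in 309 of the 14345 tested genes (2.15%).

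Meningioma libraries 3, 9 and 10 formed a group of their own for GJB2, with 972, 829 and 884 FPKM, and the next library had 382 FPKM. In library 10 only 47 of the 24580 genes had a higher FPKM than GJB2. These were the same 3 libraries that scored lowest on the first component, with -41.7, -44.1 and -53.5 against -22.9 for the next. The mean of GJB2 over the 13 meningiomas was 409 ± 290.3 FPKM (SD) and that over the 3 controls 48.7 ± 16.1 FPKM (SD). Relative to the control mean, 12 meningiomas were at least 4-fold higher, library 3 was 19.9-fold higher and library 6 was 1.26-fold higher. The fitted log2 fold change was 3.07 (standard error 0.71). Without libraries 3, 9 and 10 it was 2.44 (standard error 0.47), whereas that of PERP was 2.23 (standard error 0.43).

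**Figure D1:**
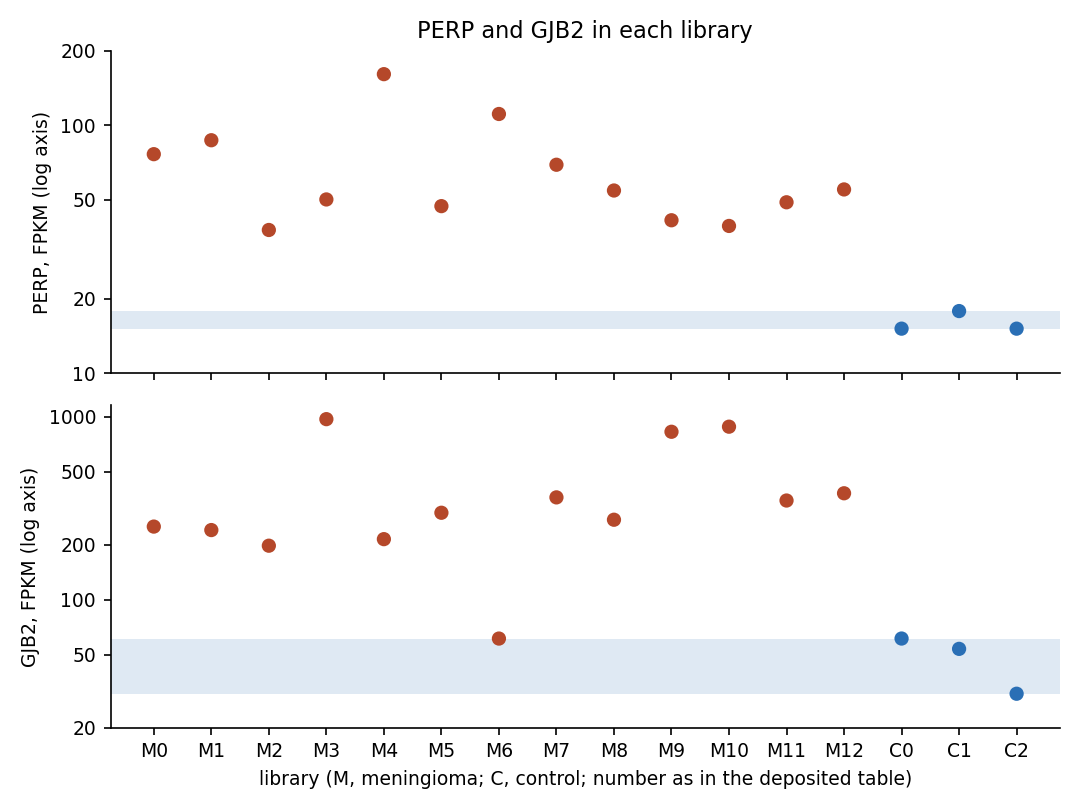
FPKM on a log axis of PERP (top) and GJB2 (bottom) in each of the 13 meningioma libraries (red, M0 to M12) and 3 control libraries (blue, C0 to C2), with the range of the controls shaded. All meningioma points for PERP lie above the shaded range, with libraries 4 and 6 highest, and for GJB2 library 6 lies at its upper edge while libraries 3, 9 and 10 stand far above the rest.

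Counting error was small beside these ranges. PERP was covered by 374 to 2602 fragments per meningioma and 194 to 468 per control, which gives a counting error of 1.96% to 7.18% of the value over all libraries. GJB2 was covered by 503 to 11610 fragments per meningioma and 285 to 922 per control, with a counting error of 0.928% to 5.92%. These errors cover counting only. Ranked within each library, the FPKM of PERP exceeded that of 88.8% to 98.4% of genes in the meningiomas and 74.4% to 79.2% in the controls. The FPKM of GJB2 exceeded that of 95.7% to 99.8% of genes in the meningiomas and 87.3% to 94.7% in the controls. By rank the groups did not overlap for either gene, narrowly for GJB2 (95.7% in meningioma library 6 against 94.7% in control library 0). The share of all genes separated in this way was not computed. Nothing is read from it, because this contrast chose the genes.

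Since FPKM is a level per length, the pair was compared within a library, which relies on annotated transcript lengths that were not checked. By FPKM, GJB2 was above PERP in 12 of 13 meningiomas and in 3 of 3 controls. The ratio of GJB2 to PERP in FPKM was 4.07, 3.03 and 2.03 in the controls. In the meningiomas it ran from 0.553 in library 6, over a median of 5.24, to 22.5 in library 10. The controls lay inside the range of the meningiomas. Library 6 was the one tumor in which PERP had the higher FPKM of the pair. Library 4 came next with a ratio of 1.33, and libraries 3, 9 and 10 had ratios of 19.3, 20.02 and 22.5. In TMM-normalized CPM, without transcript length, PERP was also the higher in meningioma library 4 (705 against 456) and, barely, in control library 2 (64.7 against 63.6).

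**Figure D2:**
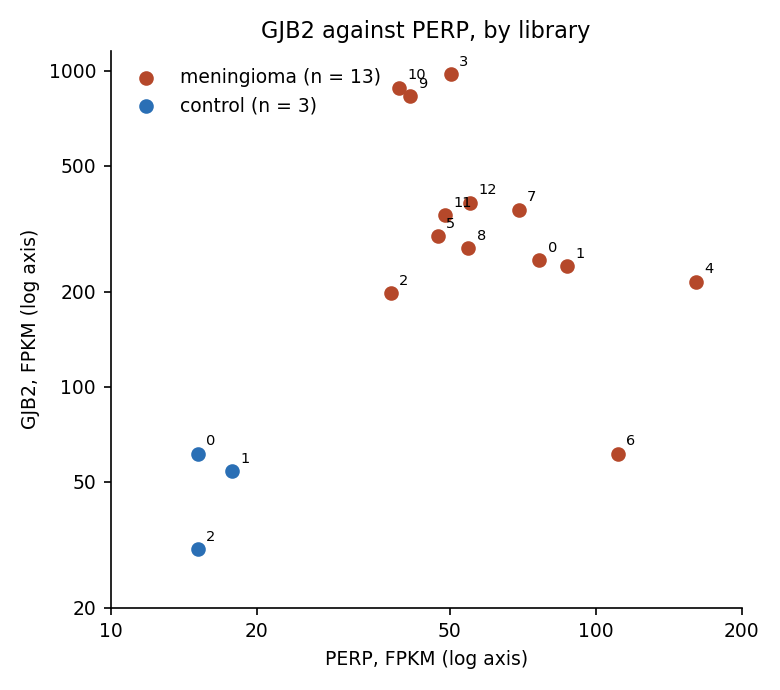
GJB2 against PERP in FPKM, both on log axes, with 1 point per library labelled by its number (red, 13 meningiomas; blue, 3 controls). The controls sit at the lower left, libraries 3, 9 and 10 at high GJB2 with PERP of 50.2, 41.4 and 39.3 FPKM, and libraries 4 and 6 at high PERP with GJB2 of 215 and 61.5 FPKM.

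Whether the pair varied together was asked within the 13 meningiomas alone, on log2 of TMM-normalized CPM with a pseudocount of 0.5. Tumors with more PERP tended to have less GJB2 (Pearson r = -0.61, permutation test with 100000 resamples, two-sided p = 0.0290), but this did not pass adjustment over the 13 relations computed (Benjamini-Hochberg p = 0.188). Spearman's rho was -0.46 (permutation p = 0.113, adjusted p = 0.591). Without libraries 4 and 6, the farthest from the median of PERP, r was -0.43 (permutation p = 0.192), and without libraries 3 and 6, the farthest from the median of GJB2, it was -0.51 (permutation p = 0.103). The inverse relation thus rested in part on the libraries at the ends of the range. Among the 14344 other tested genes, 5.93% had a lower rho with PERP than GJB2 had, and 10.7% had a lower rho with GJB2 than PERP had, against medians of 0.022 and -0.033.

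GJB2 had the larger spread from tumor to tumor, given here as a description with no test. Its highest meningioma level was 15.8 times the lowest in FPKM, against 4.25 times for PERP. On the log2 scale of CPM, the SD between meningiomas was 1.05 for GJB2 and 0.63 for PERP, a ratio of 1.67. Leaving out 1 meningioma at a time, the ratio ran from 1.33 without library 6 to 2.22 without library 4. Without libraries 3, 9 and 10 it was 1.19. The SD of PERP was larger than that of 55.5% of tested genes and the SD of GJB2 larger than that of 84.3%, where the median gene had 0.58. Between the 3 controls the SD was 0.15 for PERP and 0.54 for GJB2.

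**Figure D3:**
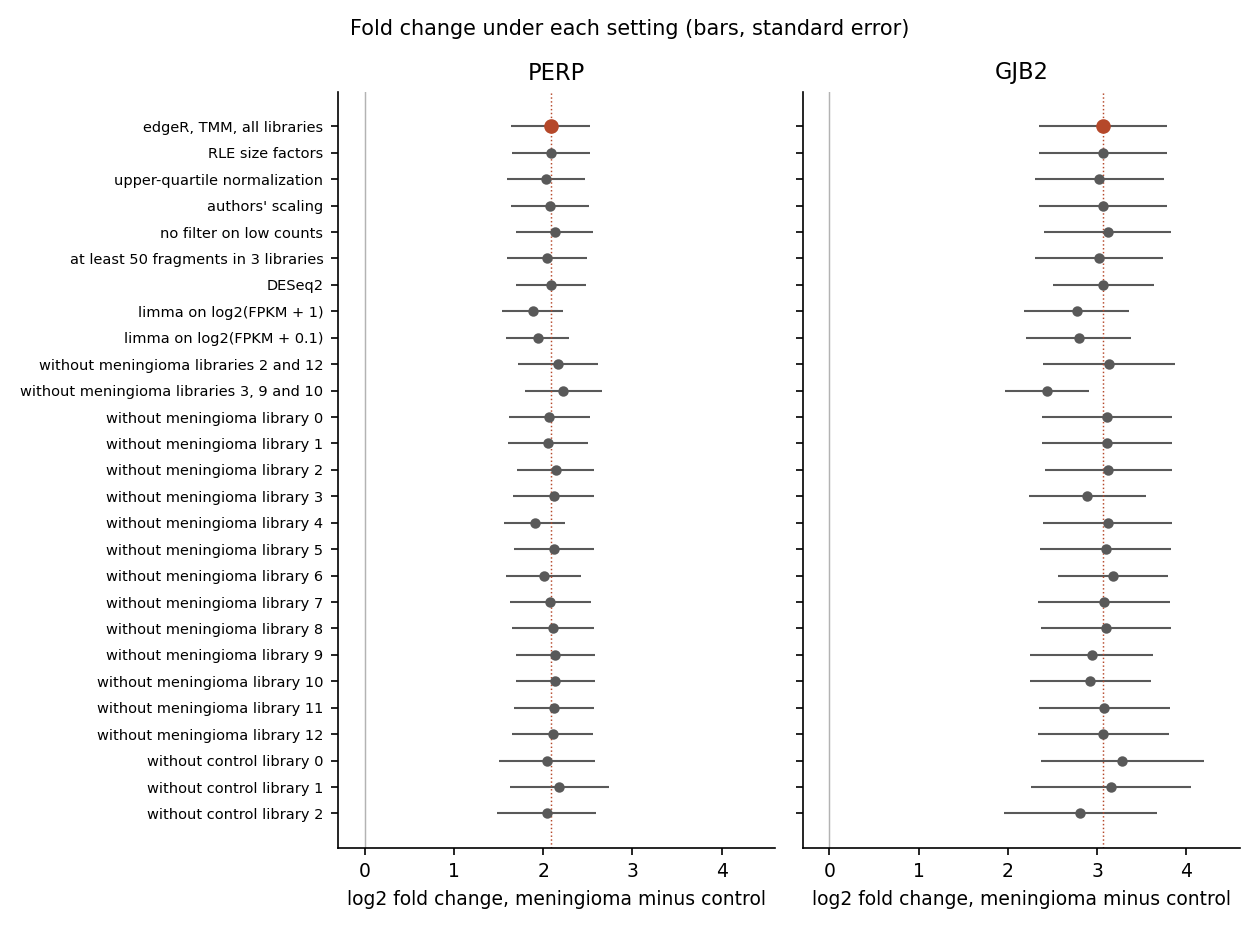
Fitted log2 fold change of PERP (left) and GJB2 (right), meningioma minus control, with all libraries (red) and under each other setting or with libraries left out (grey), where bars are standard errors. All values lie above 0, and the lowest for GJB2 is 2.44, without meningioma libraries 3, 9 and 10.

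No relation of either gene with depth or with summed vessel markers passed adjustment among the meningiomas, which with so few libraries does not show that there is none. The r of PERP was 0.12 with total fragments, 0.05 with the summed endothelial markers and 0.06 with the summed mural markers (permutation p = 0.705, 0.859 and 0.848). The r of GJB2 with these was -0.10, -0.29 and -0.20 (permutation p = 0.753, 0.331 and 0.522). Libraries 1 and 7 were the farthest from the median of the vessel markers. Without them, r of GJB2 was -0.57 with the endothelial and -0.44 with the mural markers (unadjusted permutation p = 0.0653 and 0.178). That of PERP was then 0.20 and 0.17 (unadjusted permutation p = 0.562 and 0.613). Without library 6, r of GJB2 with the endothelial markers was 0.02 (adjusted permutation p = 0.994). None of the 13 relations had an adjusted p under 0.05, and 2 of them, that of PERP with GJB2 included, had an unadjusted p under 0.05 for r. The r of KLF5, an epithelial transcription factor, was 0.15 with PERP and 0.13 with GJB2 (permutation p = 0.610 and 0.666). The r of PDPN, the podoplanin gene of arachnoid cells, was -0.08 with PERP and -0.39 with GJB2 (permutation p = 0.792 and 0.191). Several of these weak relations changed sign with the libraries used. Without libraries 3, 9 and 10, r with total fragments was -0.21 for PERP and 0.41 for GJB2 (adjusted permutation p = 0.982 and 0.891), and without libraries 2 and 12, r of PERP with PDPN was 0.20 (adjusted permutation p = 0.787).

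As a description, with no test, each gene was ranked against the 123 other genes with a symbol by Spearman's rho over the same 13 meningiomas. Those symbols come from the study's lists of over- and underexpressed genes, so the ranking covers a chosen set. All genes of a library share its preparation and normalization, and preservation and extraction differed between the tumors. WNT5A (ENSCAFG00000029321), a secreted Wnt ligand, was the most unlike PERP, with a rho of -0.89, and only 2 of all tested genes had a lower one. WNT5A had 114 FPKM in library 10 and 95.4 FPKM in library 9, where PERP was low, and 12.2 FPKM in library 4 and 20.1 FPKM in library 6, where PERP was high. In the controls, where PERP was lower still, WNT5A was also low, at 6.44, 5.21 and 11.5 FPKM, so the inverse order held among tumors and not across the groups. Next came MYBL1, a transcription factor of the MYB family (rho -0.75), and CTPS1, an enzyme of CTP synthesis (rho -0.66). Of all tested genes, 37 and 127 had a lower rho with PERP than MYBL1 and CTPS1 had. The most like PERP were the adhesion receptor GPR133 (rho 0.74), CCDC80 (rho 0.70) and ADAMTSL1 (rho 0.65). ADAMTSL1 was scarcely detected, with a median of 0.228 FPKM in the meningiomas. Of all tested genes, 74, 117 and 230 had a higher rho with PERP than GPR133, CCDC80 and ADAMTSL1 had. Between the groups, GPR133 was higher in meningioma (fitted log2 fold change 2.50). CCDC80 and ADAMTSL1 were lower (-1.76 and -3.71), opposite to PERP.

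Among the genes with a symbol, those most unlike GJB2 were FOS, an immediate-early transcription factor (rho -0.75), ECE1, endothelin converting enzyme (rho -0.69), and IGFBP6, which binds insulin-like growth factors (rho -0.68). Of all tested genes, 119, 258 and 275 had a lower rho with GJB2 than FOS, ECE1 and IGFBP6 had. Those most like it were MYOC, myocilin (rho 0.82), PAMR1 (rho 0.75) and LPAR3, a receptor for lysophosphatidic acid (rho 0.73). PAMR1 (ENSCAFG00000006865) had 348, 259 and 196 FPKM in libraries 3, 9 and 10 and 7.79 FPKM in library 6, against 24.9, 8.11 and 10.5 FPKM in the controls. MYOC had a median of 3.31 FPKM in the meningiomas and 0 fragments in library 2, so its order among tumors rests on few fragments. In the controls MYOC had 50.4 to 1042 FPKM, so it was lower in meningioma (fitted log2 fold change -5.23), opposite to GJB2. PAMR1 and LPAR3 were higher (3.07 and 2.23). Of all tested genes, 85 had a higher rho with GJB2 than MYOC had, 209 a higher one than PAMR1 and 271 than LPAR3. The highest was 0.92, for ENSCAFG00000005472, which has no symbol here. For PERP the highest was 0.91, for ENSCAFG00000003808, and the lowest was -0.93, for ENSCAFG00000016395, both also without a symbol.

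**Figure D4:**
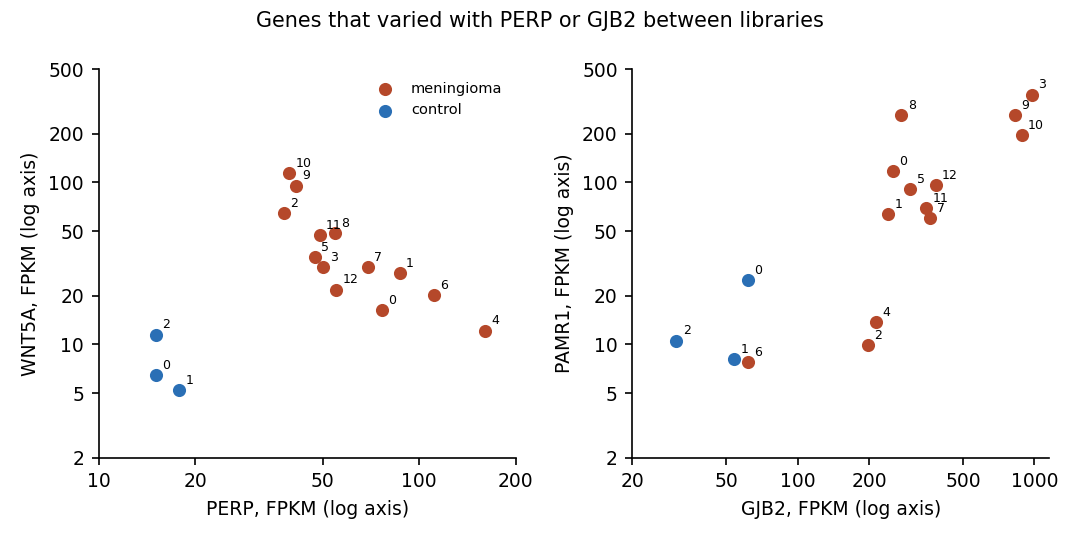
FPKM on log axes of WNT5A against PERP (left) and PAMR1 against GJB2 (right), with 1 point per library labelled by its number (red, 13 meningiomas; blue, 3 controls). WNT5A falls from 114 FPKM in library 10 to 12.2 FPKM in library 4 as PERP rises, and PAMR1 is highest in library 3, with 348 FPKM, and lowest in library 6, with 7.79 FPKM.

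The rest of the junction machinery could be followed only where the study paired a symbol with an identifier. Every such gene had been picked by the study on these same libraries, so counts for lists are not independent evidence of direction or of passing a test. PERP was the 1 gene of 15 in the desmosome list and of 10 in the list of p53 targets with an identifier, and GJB2 the 1 of 21 in the gap junction list. Desmoplakin, desmogleins, desmocollins, plakophilins and the other connexins were therefore not analysed here. In the RefSeq annotation UU_Cfam_GSD_1.0, GJB2 lies between 2 other connexin genes, GJB6 and GJA3, and PERP between TNFAIP3 and ARFGEF3.

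The list for adherens and tight junctions held 26 genes, of which 5 had an identifier. All 5 fell in meningioma (edgeR's quasi-likelihood test, adjusted p under 0.05, which 3.55% of tested genes passed in that direction). The study had picked these 5 for this contrast, and the list was chosen with earlier results known. Nothing is therefore read from their shared direction. MCAM, an adhesion molecule of vascular walls, had a log2 fold change of -3.06, PECAM1, the endothelial junction molecule, one of -2.71, the endothelial phosphatase PTPRB one of -2.52 and angiomotin (AMOT) one of -2.03. All 13 meningiomas were below all 3 controls for each of the 5, as for 3.58% of tested genes. The median of the 5 was -2.64, against 0.06 over all tested genes. ESAM, PECAM1 and PTPRB are also in the endothelial list and MCAM in the mural list, so these values do not describe junction genes in general. All 12 endothelial markers fell (summed FPKM 47.7 to 202 in the meningiomas, 522 to 863 in the controls), as did all 6 mural markers (14.5 to 54.4 against 131 to 327), and 5 of 7 fibroblast and matrix genes (172 to 506 against 1191 to 2128). Of these calls, AMOT (adjusted p = 0.0916) and FMOD (0.127) were lost without control library 0, and NOS3 (0.0834) and OLFML3 (0.063) without control library 2. Whether the lower levels of these endothelial, mural and fibroblast genes had a part in the difference of PERP and GJB2 between the groups was not tested.

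Of the 31 listed genes beside PERP and GJB2, 27 passed the test in either direction, against 4.86% of tested genes, and 3 of them rose, against 1.31%. The study had picked all 31 for this contrast on these same libraries, so nothing is read from their excess over the background. The adjusted p-values below describe these genes and are no independent test of them. KLF5 (ENSCAFG00000005037) had 52.2 to 189 FPKM in the meningiomas and 8.56 to 13.7 FPKM in the controls, with a fitted log2 fold change of 3.23 (edgeR adjusted p = 8.31e-05). UPK3B, a uroplakin of mesothelium and urothelium, had a log2 fold change of 2.88 (edgeR adjusted p = 0.0108), and PDPN one of 2.45 (edgeR adjusted p = 0.0398). The epithelial gene WFDC2 had a log2 fold change of 1.76 (edgeR adjusted p = 0.122) and did not pass the threshold. KLF5 alone of these passed in every fit that left out 1 library. The adjusted p of UPK3B was 0.0547 without control library 1 and 0.101 without control library 2, and that of PDPN was 0.123, 0.137 and 0.243 without control libraries 0, 1 and 2 and 0.0519 and 0.0518 without meningioma libraries 0 and 5. Without meningioma library 6 WFDC2 passed (adjusted p = 0.0242).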

How the data were processed

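RNAseq libraries were made from ribosome-depleted RNA of 13 meningiomas and 3 control meninges with a directional kit. The submitters' processing notes name cutadapt 1.8, TopHat2 2.0.13 and Cuffdiff 2.2.1 and the build canFam3. The authors removed reads matching ribosomal and small RNAs. The deposited table gives estimated counts of fragments per gene and library as Cuffdiff made them. The authors' scaled signal is the fragments over a size factor of the library. The deposited FPKM also takes account of transcript length. Of the estimated counts, 0.347% had a decimal part and were rounded.

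The 14345 genes that reached 10 fragments in 3 or more libraries were fitted with edgeR 4.0.16 (TMM, quasi-likelihood, R 4.3.3), with Benjamini-Hochberg adjustment over all of them at a threshold of 0.05. The standard error of an edgeR fold change is its size over the square root of the F statistic of the quasi-likelihood test. It therefore restates that test and is given as a description. Relations were tested in Python 3.11.15 with numpy 2.4.6 and scipy 1.17.1 by permutation, over the 13 meningiomas only. A planned permutation test of spread is not given, since variation within the groups entered the study's choice of genes. Alternatives were RLE, upper-quartile and the authors' size factors, no filter or at least 50 fragments, DESeq2 1.42.0, limma 3.58.1 on log2 FPKM with a pseudocount of 1 or 0.1, and libraries left out.

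PERP and GJB2 and the gene lists were chosen with earlier results of these data known. Besides PERP and GJB2, genes named are listed genes with an identifier (the 2 highest and 2 lowest log2 fold changes of a list) and, for each of the pair, the 3 highest and 3 lowest Spearman rho among genes with a symbol. KLF5 and PDPN were named as preset relations, and 1 further listed gene is not reported here. ESAM, FMOD, NOS3 and OLFML3 were named after their values were seen, as were the genes without a symbol, which have the most extreme rho of all tested genes. Symbols came from the study's supplementary lists, which pair them with 124 identifiers. Sequences were not used here.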

Additional observations from a re-analysis of the deposited data

How the results depend on the processing

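Over 10 alternatives, the log2 fold change of PERP ran from 1.88 to 2.23 and that of GJB2 from 2.44 to 3.14, and when 1 library at a time was removed from 1.91 to 2.18 and from 2.81 to 3.28. The r of PERP with GJB2 ran from -0.72 to -0.43 over 7 alternatives and from -0.73 to -0.49 with a meningioma left out, and its adjusted p was above 0.05 throughout. The ratio of the SD of GJB2 to that of PERP ran from 1.19 to 1.74 over 6 alternatives. Of 31 listed genes, 27 passed 0.05, against 27 to 28 over 10 alternatives and 23 to 29 with a library left out. Of these, 3 were higher, against 1 without control library 1 or 2 (1 to 4 over all libraries left out), since UPK3B and PDPN then missed the threshold. Over all tested genes, edgeR called 188 higher and 509 lower, DESeq2 662 and 702, upper-quartile normalization 150 and 561, limma 226 and 664 with a pseudocount of 1 and 205 and 463 with 0.1, and edgeR without a filter 192 and 608. Leaving out control library 0, 1 or 2 gave 37 and 208, 43 and 307, and 12 and 157. Without meningioma library 6 there were 316 higher and 615 lower, without libraries 2 and 12 354 and 682, and without libraries 3, 9 and 10, an alternative chosen after seeing the data, 105 and 374. With 3 controls, a control left out leaves the spread of that group to a pair of libraries. No paired analysis was possible because tumors and controls came from different dogs and the library numbers of the table do not tie a tumor to a control.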
